A study of Arabidopsis thaliana with 30 samples.

Results

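The stele is the vascular cylinder at the centre of the Arabidopsis thaliana root, with xylem, phloem, the dividing procambial cells between them and the enclosing pericycle. Its response to auxin was measured with 6 arrays of cells sorted by fluorescence, 3 from auxin-treated and 3 from mock-treated seedlings, out of 30 arrays in the series, and each array gave a signal for 22746 probe sets other than controls. The arrays were chosen by their sample titles, and no measured value entered that choice. The first group held stele cells of 1-week-old seedlings (accession Col-0, reporter line pWOL::GFP) given the natural auxin indole-3-acetic acid (IAA) at 5 µM for 2 h. The second held stele cells of the same line and age given solvent alone. Roots of both groups then passed through a wall digestion of 1 h, and for this step the series' design text also names IAA at 5 µM. The text does not say what the digestion medium of the mock roots held. What counts as stele here is thus whatever cells carried green fluorescent protein under the WOL promoter, that of a cytokinin receptor gene, and survived digestion and sorting. The other arrays, used for comparison, came in the same 2 treatments from xylem-pole pericycle (E3754), epidermis with lateral root cap (pWER::GFP), columella (PET111) and undigested roots, 3 arrays per group. The labels do not say which arrays came from separate cultures, so p-values measure the spread between these arrays, which may be technical.

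Auxin acts through a short pathway. The hormone joins a TIR1/AFB receptor to an Aux/IAA repressor, the repressor is degraded, and ARF transcription factors are freed to act on their targets. Among the first targets are the Aux/IAA genes themselves and the GH3 genes, whose enzymes attach amino acids to auxin, so that both families feed back on the signal. In the inner root auxin is known for directing vascular patterning and for starting lateral roots, which arise from pericycle cells that re-enter division.

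Signals are MAS5 intensities on a linear scale, and changes are differences of log2(signal + 16), auxin minus mock, with standard errors from 1 limma fit over the 30 arrays. On this scale the change of a gene with a low signal is understated. A change was called at a Benjamini-Hochberg adjusted p under 0.05 over all 22746 probe sets. Only probe sets with 1 gene were read per gene, so most families were covered in part: 7 of 32 Aux/IAA genes, 5 of 10 GH3 genes, 3 of 11 lateral root genes, 2 of 29 auxin transport genes, 6 of 95 cell cycle genes and 18 of 34 expansins on the lists were measured, 1 of 43 xylem genes, and none of 78 SAUR genes or of 30 auxin receptor and ARF genes. Array medians were between 81.8 and 82.9 in auxin stele and between 68.8 and 72.6 in mock stele, and between 54.4 and 81.0 on the other 24 arrays. The deposited values therefore carried a small general shift between the groups, and the median change was 0.10 over all probe sets, against 0.01 after quantile normalization. Within each stele group arrays correlated at 0.961 to 0.973 across probe sets, which are not independent replicates. The 3′ to 5′ ratio of the actin control probe sets, a sign of RNA integrity, was 1.36 to 2.18 in auxin stele and 1.53 to 1.80 in mock stele, and for GAPDH 1.103 to 1.37 and 1.18 to 1.37, so the groups overlapped in RNA quality but not in array median.

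The tissue label was checked with LHW (LONESOME HIGHWAY), a transcription factor gene needed for the proper number of vascular cells. LHW had signals of 454, 556 and 616 in auxin stele, against 239, 233 and 328 in mock stele. In mock samples it lay 1.02 ± 0.26 above the mean of the other 3 sorted tissues (limma adjusted p = 0.00419), in the direction of the label. Of all genes, 9.73% were called higher and 7.67% lower in that comparison of mock samples. LHW was also higher with auxin, by 0.99 ± 0.32 (adjusted p = 0.0266), a call lost when any of 4 of the 6 stele arrays was left out. The other stele marker measured, PHV, a regulator of vascular polarity, was 0.78 ± 0.33 above the other mock sorted tissues, which did not pass (adjusted p = 0.0929). The columella marker ATL8 went against its label, with a higher mock level in stele than in the other sorted tissues by 1.22 ± 0.29 (adjusted p = 0.00245). The summed signal of the 5 endodermis and cortex markers was 338 to 382 in auxin stele and 299.6 to 364 in mock stele. In mock samples it was 289 to 324 in epidermis, 387 to 601 in pericycle, 393 to 888 in columella and 563 to 831 in intact roots. The summed signal of LHW and PHV was 530.4 to 709 in auxin stele and 282 to 438 in mock stele. In mock pericycle, epidermis and columella it was 129 to 272, 83.4 to 177 and 103 to 197. Mock intact roots, at 244 to 362, overlapped mock stele in this sum. None of the 3 phloem genes measured was called, and the 1 xylem gene was not called either, in limma or at an unadjusted p under 0.05.

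Auxin changed a large part of the stele transcriptome in both directions. Of 22746 probe sets, 2327 were called higher (10.2%) and 1861 lower (8.18%), 4188 in all (18.4%). Read per gene, through the probe set of highest signal among those that carry 1 gene, 1323 of 13356 genes were called higher (9.91%) and 905 lower (6.78%), together 16.7%, of which 703 rose (5.26%) and 471 fell (3.53%) by 2-fold or more. A few genes dominated in size: 12 genes rose and 7 fell by 8-fold or more. In sorted cells, a change in the share of a cell type and a change in RNA per cell cannot be told apart. The total of 4188 probe sets fell to 2648 without auxin replicate 2, and the majority of higher calls turned into a majority of lower calls under quantile normalization (2012 higher, 2235 lower) and under centring on the 75th percentile (1981 higher, 2068 lower).

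The feedback genes of the auxin pathway gave the largest rises. GH3.3 had signals of 12556, 10375 and 13014 in auxin stele, against 25.2, 48.8 and 50 in mock stele, a change of 7.74 ± 0.22, or 213-fold (limma adjusted p = 1.23e-25). No other named gene changed as much. IAA29, an Aux/IAA repressor gene, had 4741, 4654 and 3939.9 in auxin stele and 31, 41 and 79.8 in mock stele (6.13 ± 0.29, adjusted p = 2.59e-18). WES1, also called GH3.5, had 4072, 3125 and 3702 in auxin stele and 187, 164 and 176 in mock stele (4.24 ± 0.20, adjusted p = 3.09e-18). The auxin arrays lay far above the mock arrays for each of these 3 genes, and the mock arrays of WES1 were tightly grouped.

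The other 2 Aux/IAA genes that were called, IAA30 and IAA20, encode repressors that lack the degron through which auxin destroys many members of the family. IAA30 had 3252, 3454 and 4332 in auxin stele, against 174, 231 and 229 in mock stele (4.02 ± 0.26, adjusted p = 3.8e-14), and IAA20 had 230.3, 301 and 215 in auxin stele and 34.1, 61.6 and 42.8 in mock stele (2.101 ± 0.38, adjusted p = 0.00012). Of the 7 Aux/IAA genes measured, 3 were called higher and none lower, with a median change of 0.62 beside 0.11 over all genes. The others, among them IAA18 and IAA33, had changes of 0.62 (adjusted p = 0.139) and 0.17 (adjusted p = 0.799). Of the 5 GH3 genes measured, 3 were called higher: GH3.3, WES1 and GH3.1, which had 499.6, 541 and 516 in auxin stele and 287, 194 and 236 in mock stele (1.08 ± 0.20, adjusted p = 0.000112). GH3.9 and GH3.17 changed by 0.26 (adjusted p = 0.661) and 0.07 (adjusted p = 0.868). Within each family, strongly raised members thus stood beside members that were not called. Over all genes 9.91% were called higher and 6.78% lower.

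**Figure D1:**
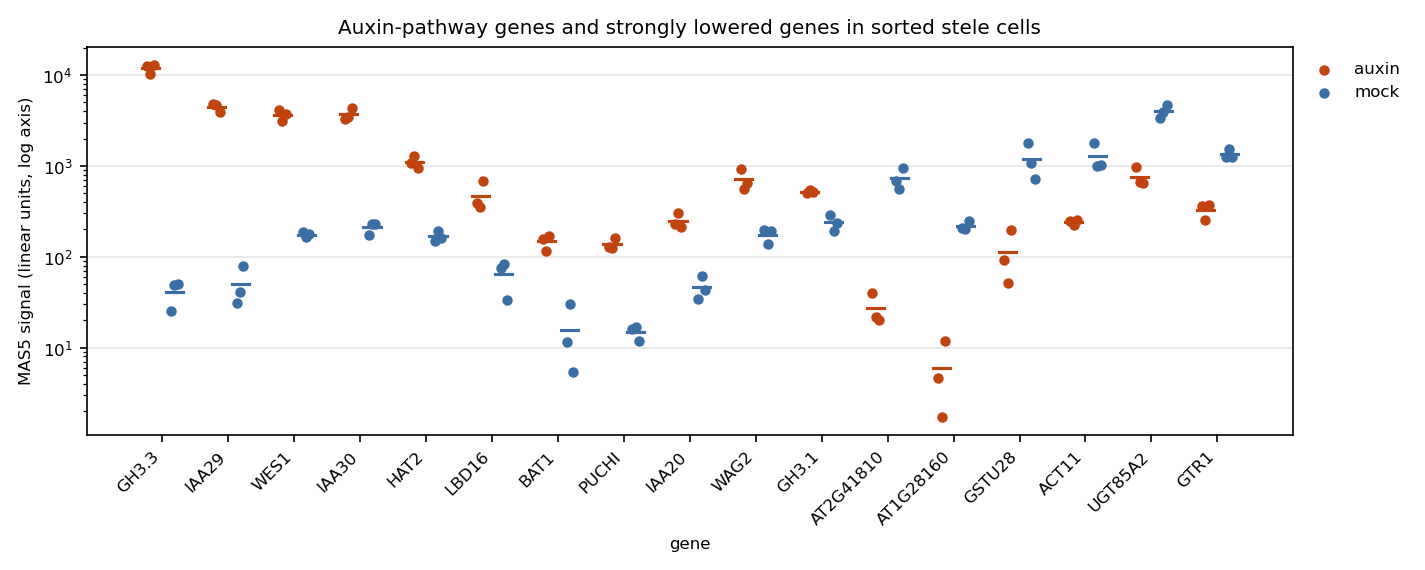
MAS5 signals (log axis) of 17 genes on the stele arrays, auxin left of mock for each gene; points are arrays and bars their means (n = 3). The first 11 genes lie higher on all auxin arrays, GH3.3 at 10375 or more in each, and the last 6 lie lower on all auxin arrays.

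Of the lateral root genes, 2 of 3 measured were called higher, and of the auxin transport genes 1 of 2, with none lower. The shares over all genes were 9.91% higher and 6.78% lower. LBD16, a transcription factor that acts at the first asymmetric divisions of lateral root founder cells, had 386, 349.9 and 679 in auxin stele, against 76.1, 83.7 and 33.2 in mock stele (2.61 ± 0.28, adjusted p = 1.18e-08). PUCHI, a factor that shapes the young primordium, had 129, 124 and 162 in auxin stele and 16, 16.7 and 11.7 in mock stele (2.32 ± 0.34, adjusted p = 4.24e-06). For both genes the groups were well apart, although the mock signal of PUCHI was low. The third gene of the list, LBD29, was near the floor of the arrays in both groups, at 13.8, 18.7 and 4.82 in auxin stele and 1.32, 6.85 and 2.16 in mock stele, and was not called (0.53, adjusted p = 0.311). HAT2, a homeodomain-leucine zipper gene of the HD-ZIP II class, rose by 2.62 ± 0.22 (adjusted p = 4.21e-11). WAG2, whose kinase phosphorylates PIN auxin exporters, had 927, 553 and 653 in auxin stele and 195, 137 and 194 in mock stele (1.91 ± 0.26, adjusted p = 1.02e-06). The related kinase gene PID2 was not called, at 0.80 (adjusted p = 0.102). Among the 6 measured genes of auxin synthesis and breakdown, none was called in either direction in limma, nor at an unadjusted p under 0.05, and YUC2, of the YUCCA family that makes auxin, changed by 0.38 (adjusted p = 0.508).

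Single genes of several other hormone pathways were called. Of the listed genes, 1 of 3 measured for cytokinin and 1 of 2 for ethylene were called higher. For gibberellin and brassinosteroid 1 of 4 was called higher and 1 lower. Over all genes 9.91% were called higher and 6.78% lower, so these counts are read only as those of single genes. BAT1, picked after values were seen, an acyltransferase gene that lowers active brassinosteroids, had 155, 117 and 170.3 in auxin stele, against 11.6, 30.2 and 5.39 in mock stele (2.43 ± 0.27, adjusted p = 1.61e-08). BRL1, a brassinosteroid receptor gene of vascular cells, rose by 1.03 ± 0.31 (adjusted p = 0.0178). GID1B, a gibberellin receptor gene, fell to 314, 315 and 270.0 in auxin stele, against 641, 649 and 514 in mock stele (-0.96 ± 0.21, adjusted p = 0.00118), and its homologues GID1A and GID1C were not called (-0.05 and -0.20, adjusted p = 0.936 and 0.666). ARR15, a type-A response regulator of cytokinin signalling, rose by 0.90 ± 0.31 (adjusted p = 0.0366), and RTE1, which keeps the ethylene receptor ETR1 active, by 0.99 ± 0.34 (adjusted p = 0.0349). The calls of BRL1, ARR15 and RTE1 were each lost when any of 3, 4 or 5 of the 6 stele arrays was left out. Those of ARR15 and RTE1 were also lost under quantile normalization and with 24 sorted arrays alone. ARR15 lost its call with a pseudocount of 64 too, and its signals were too low to pass a filter on low values. BBM, an AP2-type factor of the root meristem, rose by 1.28 ± 0.41 (adjusted p = 0.0247), a call lost without any of 4 arrays.

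Several of the strongest rises belonged to genes that the annotation gives by locus only. AT2G17680 was at 143, 246 and 341 in auxin stele, against 1.17, 0.956 and 0.671 in mock stele (3.86 ± 0.39, adjusted p = 2.29e-09), so its mock signal was at the floor of the scale. AT5G47440 had 567, 842 and 627 in auxin stele and 25.4, 45.3 and 27.6 in mock stele (3.83 ± 0.29). AT1G60010 had 2138, 3029.7 and 2776 in auxin stele and 222, 378 and 361 in mock stele (3.01 ± 0.26). AT4G35200 and AT4G35210, which are next to each other on the chromosome, rose by 3.08 ± 0.31 and 3.000 ± 0.33. Their changes were nearly equal in each of the 5 sample types, and whether their probe sets share targets was not tested. AT5G62280, AT3G42800, AT3G26470 and AT1G01725 rose by between 2.74 and 3.102, and SETH6 rose by 2.91 ± 0.34. The adjusted p of these genes in limma was at most 6.85e-08. Beside the named genes, 998 of the 9233 probe sets with no gene or several genes were called higher and 948 lower, 13 and 15 of them by 8-fold or more.

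Of the 6 cell cycle and replication genes measured, 3 were called higher with auxin and none lower, with a median change of 0.88 beside 0.11 over all genes. Their changes ran from 0.40 to 1.59. Over all genes 9.91% were called higher and 6.78% lower. PRL (PROLIFERA, the MCM7 subunit of the replicative helicase) had 792, 515 and 461 in auxin stele, against 290.3, 334 and 210.4 in mock stele (1.02 ± 0.31, limma adjusted p = 0.0158). AUR3 and AUR2, Aurora kinase genes of mitosis, rose by 1.59 ± 0.34 (adjusted p = 0.000942) and 0.94 ± 0.30 (adjusted p = 0.0246). The mock arrays of AUR3 were spread, at 31.9, 98.6 and 149.6, below auxin arrays at 236, 296 and 299.7. AUR1 and POLA3, a primase subunit gene, lay higher on all auxin arrays without a call (0.82 and 0.74, adjusted p = 0.0733 and 0.0692). Among all genes, called or not, 20.6% lay higher on all auxin arrays. In the wider set of 20 mitotic and replication factors, which was chosen after values were seen, 9 were called higher and 2 lower, with a median of 0.82. Besides those named, the 9 included BUBR1 of the spindle checkpoint, at 188, 234 and 225 in auxin stele and 122, 87.3 and 84.6 in mock stele (1.03 ± 0.33, adjusted p = 0.0232), DNA topoisomerase II (TOPII, 0.97 ± 0.34), the histone chaperone ASF1B (0.83 ± 0.30), telomerase (TERT, 0.96 ± 0.32), TSO1 (0.92 ± 0.31) and SIM (0.82 ± 0.27), an inhibitor of cyclin-dependent kinases. SIM is known for ending mitosis in favour of endoreduplication. The 2 lower were KINESIN-13A (-1.05 ± 0.20, adjusted p = 0.000207), a microtubule-depolymerising motor, and ATMAP65-6 (-0.79 ± 0.29), a microtubule-associated protein. The count of 9 rested on all arrays together: without any 1 stele array it was between 2 and 4, lowest without mock replicate 3, while the median change stayed between 0.77 and 0.85. AUR3 was called without each stele array in turn, and each of the other 8 genes lost its call without at least 2 of them.

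Of the 5 genes on the first histone list, 1 (HTR12) was called higher and none lower, with a median of 0.30. A set enlarged after values were seen, of genes with histone or 3xHMG symbols, held 10. HTR12, the centromeric histone H3 (CENH3), had 201, 169 and 151 in auxin stele, against 37.7, 83.4 and 34.4 in mock stele (1.55 ± 0.30, adjusted p = 0.000316). HTB4, a histone H2B gene, had 3209, 3806 and 4349 in auxin stele and 1422, 1891 and 2182 in mock stele (1.05 ± 0.20, adjusted p = 0.000183). The groups did not overlap for either gene, as for 2135 of the 2228 genes called in the stele. Both calls held without each array in turn. 3xHMG-box2, which encodes a protein that binds condensed mitotic chromosomes, had 1064, 1226 and 789.9 in auxin stele and 385, 311 and 565 in mock stele (1.27 ± 0.31, adjusted p = 0.00296), and its paralogue 3xHMG-box1 rose by 0.84 ± 0.27 (adjusted p = 0.0248). The H2B genes HTB11 and HTB1 rose by 0.64 ± 0.20 and 0.63 ± 0.22 (adjusted p = 0.0208 and 0.0435). HTB2 and the linker histone gene HON4 were not called (0.59 and -0.17, adjusted p = 0.0685 and 0.65). Of these 10 genes, 6 were called higher and none lower (between 3 and 6 without any 1 array, with 3 without auxin replicate 2 and without mock replicate 1). The median was 0.63, beside 0.11 over all genes, of which 9.91% were called higher and 6.78% lower.

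**Figure D2:**
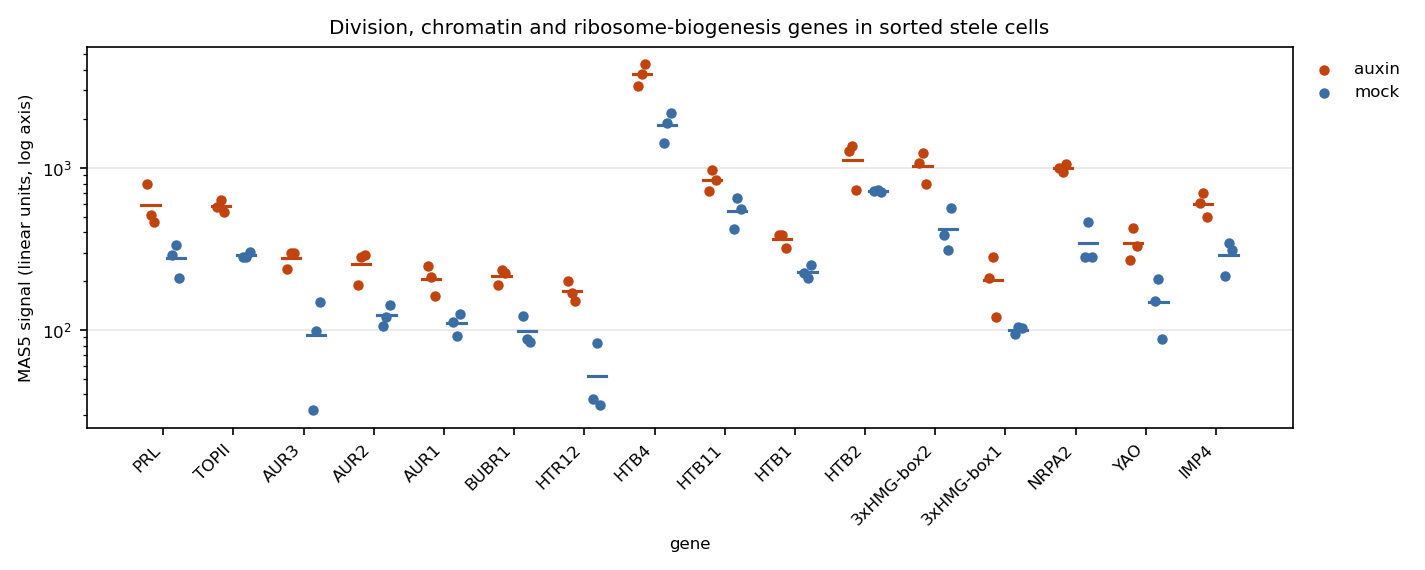
MAS5 signals (log axis) of 16 genes of division, chromatin, transcription and ribosome assembly on the stele arrays, auxin left of mock; points are arrays, bars their means (n = 3). The auxin arrays lie above the mock arrays for each gene shown (for HTR12, 151 to 201 with auxin and 34.4 to 83.4 in mock).

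Genes for making ribosomes and transcripts were called higher in number. NRPA2, the second-largest subunit of RNA polymerase I, which transcribes ribosomal RNA, had 992, 944 and 1062 in auxin stele, against 282, 464 and 283 in mock stele (1.54 ± 0.30, limma adjusted p = 0.000259). Of 12 RNA polymerase subunit genes, 5 were called higher and none lower, with all 12 changes above 0 and a median of 0.79. NRPB12 and NRPB9B rose by 1.07 ± 0.27 and 1.06 ± 0.31, whereas NRPB7 and NRPB6A were not called (0.43 and 0.30, adjusted p = 0.174 and 0.376). In the ribosome biogenesis set, 8 of 9 genes were called higher, with a median of 0.91. YAO, a partner of the U3 small nucleolar particle that cuts pre-rRNA, had 269, 427 and 329.6 in auxin stele and 151, 205 and 88 in mock stele (1.17 ± 0.27, adjusted p = 0.00168). IMP4, of the same particle, rose by 1.02 ± 0.25, the exosome gene RRP41L by 1.24 ± 0.32, and DIM1A, an rRNA methylase gene, by 1.12 ± 0.27. DIM1B, its paralogue, overlapped between the groups, at 206, 214 and 217 in auxin stele and 207, 299 and 138 in mock stele (0.05, adjusted p = 0.942). Of 6 LSM genes, whose rings bind RNA ends in splicing and decay, 4 were called higher, among them LSM6B and LSM3A (0.93 ± 0.29 and 0.81 ± 0.22). These 3 sets were chosen after values were seen. Over all genes 9.91% were called higher and 6.78% lower, with a median change of 0.11. None of the 48 cytosolic ribosomal protein genes or of the 9 rRNA processing genes on the planned lists was measured. Without mock replicate 1 no LSM gene was called (median 0.54 in place of 0.69). The other counts fell to 2 polymerase genes and to 5 ribosome biogenesis genes at the lowest, the first without mock replicate 1 or 3, the second without auxin replicate 2 or mock replicate 3.

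Genes encoded in the plastid genome had higher signals with auxin, by modest amounts. All 69 measured had a change above 0, with a range of 0.29 to 1.24 and a median of 0.69, and 20 were called higher and none lower. This set was taken up after values were seen. Over all genes the median change was 0.11, with 9.91% called higher and 6.78% lower. The median plastid gene had a signal of 1636, 1769 and 1813 on the auxin arrays, against 665, 1184 and 1294 on the mock arrays. Mock replicate 1 was thus the lowest by far, and without it only 3 plastid genes were called and the median change was 0.35, while without mock replicate 3 the count was 37 and the median 0.90. It was 9 without auxin replicate 2 and 7 without auxin replicate 3. With the replicate number as a block 48 were called, and 11 without the variance trend. The most changed was ndhD, a subunit gene of the plastid NDH complex, at 1091, 1135 and 1186 in auxin stele and 238, 606 and 719 in mock stele (1.24 ± 0.37, adjusted p = 0.0153), a call lost without mock replicate 1. psbI, of photosystem II, rose by 1.19 ± 0.27 (adjusted p = 0.00175) and kept its call without any 1 array, and accD, for fatty acid synthesis, was not called (0.29, adjusted p = 0.51). The median plastid change was 0.68 in pericycle, 0.62 in epidermis, 0.47 in columella and -0.24 in intact roots. The summed signal of 4 nuclear markers of green tissue ran from 400.3 to 441 in auxin stele and from 191 to 264 in mock stele, and 1 of them, PRK, a Calvin cycle enzyme gene, was called higher (1.098 ± 0.27, adjusted p = 0.00338). In intact roots the same sum was 1211 to 1456 with auxin and 2137 to 3405 in mock. The part of green cells or plastid content in the plastid result was not tested.

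**Figure D3:**
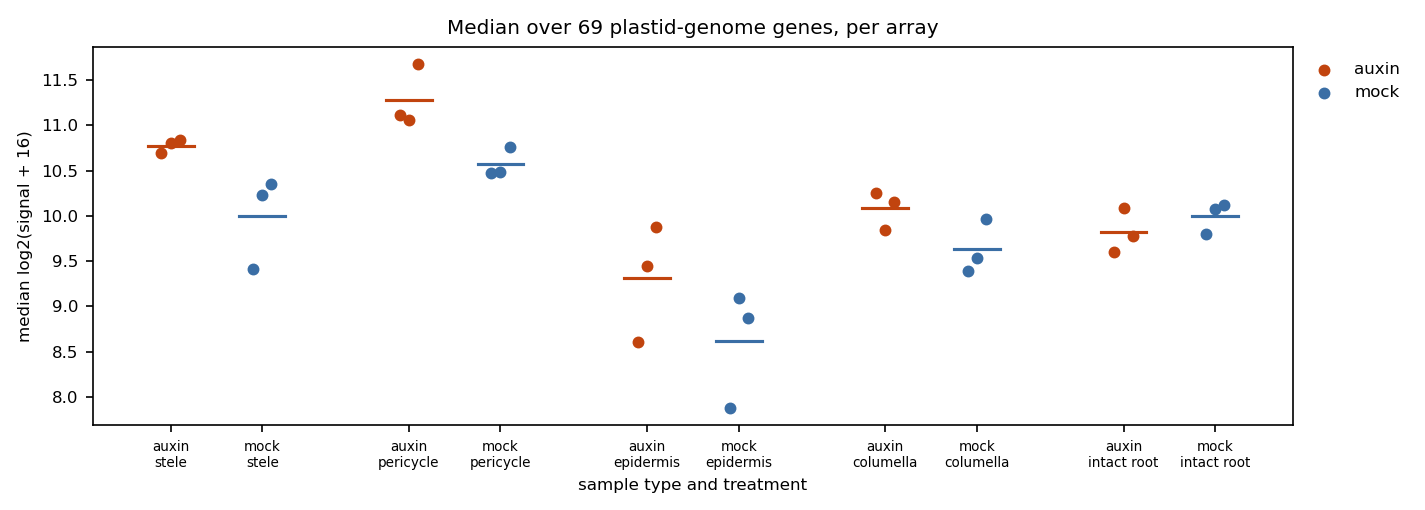
Median log2(signal + 16) over 69 plastid-genome genes on each array, auxin left of mock in each sample type; points are arrays and bars their means (n = 3). Auxin stele arrays lie between 10.7 and 10.8 and mock stele arrays between 9.41 and 10.4, with mock replicate 1 lowest.

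Most of the largest falls were of genes given by locus only. AT2G41810 had 40.2, 22 and 20.4 in auxin stele, against 689.9, 559 and 939.9 in mock stele (-4.10 ± 0.27, limma adjusted p = 4.79e-14). AT1G28160 was at 4.59, 1.73 and 11.7 in auxin stele and 209, 201 and 246 in mock stele (-3.43 ± 0.32, adjusted p = 4.95e-10), so its auxin signal was near the floor of the scale. AT5G17820, AT2G43890, AT3G59710, AT2G34810, AT3G21340, AT3G22540, AT5G24570, AT2G15960 and AT2G30930 fell by 2.71 to 3.32 on the log2 scale. That their groups did not overlap was part of how they were chosen. Over all genes, 20.6% had all auxin arrays above all mock arrays and 12.1% had them all below. AT2G43880, the neighbour of AT2G43890 in the gene order of the annotation, was lower too (-2.36). Of 5818 pairs of adjacent measured genes, 68 had both members called and changed by 2-fold or more: 32 pairs with both higher, 21 with both lower and 15 in opposite directions. Over all genes 5.26% rose and 3.53% fell by that much, so many such pairs would arise among unrelated genes too. Their number was not worked out, and whether probe sets of neighbours share targets was not tested.

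Among detoxification enzymes, the tau-class glutathione S-transferases had calls in both directions. GSTU28, a tau-class glutathione S-transferase gene whose enzyme attaches glutathione to foreign compounds, had 93, 51.9 and 195 in auxin stele, against 1789.7, 1076 and 726 in mock stele (-3.29 ± 0.36, adjusted p = 1.19e-08), and GSTU26 had 719, 635 and 644 in auxin stele, against 2357, 3115 and 3714 in mock stele (-2.15 ± 0.22, adjusted p = 2.01e-09). GSTU20 and GSTU16 rose instead, by 1.21 ± 0.29 and 1.06 ± 0.37 (adjusted p = 0.0026 and 0.0379), the second a call lost without any of 5 arrays. In total 2 of the 11 tau-class genes were called higher and 4 lower, with a median of -0.47. UDP-glycosyltransferases, which attach sugars to hormones and other small molecules, had 4 of 47 called higher and 6 lower (2 and 9 under quantile normalization), a set taken up after values were seen. The shares over all genes were 9.91% and 6.78%, so these counts are read only as those of single genes. UGT73D1 fell to 30.3, 29 and 24.6 in auxin stele, against 290.4, 243 and 219 in mock stele (-2.60 ± 0.23, adjusted p = 6.77e-11). UGT85A2 had 976, 659 and 647 in auxin stele and 3403, 3907 and 4684 in mock stele (-2.38 ± 0.19, adjusted p = 1.36e-11). UGT76D1 rose by 1.54 ± 0.31 (adjusted p = 0.000485). UGT74D1, which glucosylates auxin and its oxidation product, was not called (0.12, adjusted p = 0.852).

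Among genes that loosen the cell wall, expansins were mostly lower where they were called. Of 18 expansin genes, whose proteins let walls extend, 2 were called higher and 8 lower, with a median of -0.43. Over all genes 9.91% were called higher and 6.78% lower, with a median of 0.11. EXPA4 and EXPA15 rose: EXPA4 had 155, 189 and 140.2 in auxin stele, against 8.07, 65.5 and 34.2 in mock stele (1.93 ± 0.34, limma adjusted p = 6.35e-05), and EXPA15 had 1032, 954 and 902 in auxin stele, against 529, 308 and 379 in mock stele (1.25 ± 0.30, adjusted p = 0.00256). EXPA9 had 1658, 1532 and 1396 in auxin stele and 3303, 3159 and 3261 in mock stele (-1.08 ± 0.21, adjusted p = 0.000343). EXPB1 fell by 1.48 on the log2 scale (adjusted p = 0.000945). EXPA18 and EXPA7, which are genes of root hair cells, had low signals in mock stele, at 133, 72.8 and 88.8 and 149.5, 57.7 and 43.5, and lower with auxin (-2.12 ± 0.36 and -1.06 ± 0.34, the second lost without auxin replicate 2 or mock replicate 1). EXLA1, EXLA2, EXLA3 and EXPA21 were the other lower members, at -0.71, -1.04, -1.38 and -1.37. EXPA9, EXPA15, EXPA21, EXLA1 and EXLA2 were named after their values were seen. The 3 measured epidermis and root hair markers, EXPA18, EXPA7 and XTH26, summed to 36.9 to 77.3 in auxin stele and 143 to 301.0 in mock stele, against 527 to 754 in mock epidermis. Their part in the expansin count was not tested. The lower count was between 4 and 7 without any 1 stele array, with 4 without auxin replicate 2.

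Among xyloglucan endotransglucosylases, which cut and rejoin wall xyloglucan, XTH16 fell to 36.4, 45.9 and 39.5 in auxin stele, against 196, 117 and 144 in mock stele (-1.55 ± 0.29, adjusted p = 0.000193), and XTH32 had 18.4, 27.3 and 19.5 in auxin stele and 0.635, 0.85 and 2.08 in mock stele (1.13 ± 0.31, adjusted p = 0.00969, lost without auxin replicate 2). XTH19 and XTH18 were not called (-0.17 and -0.48, adjusted p = 0.605 and 0.185). In total 1 of the 10 measured genes of this family was called higher and 2 lower. The families that follow were all taken up after values were seen. Over all genes 9.91% were called higher and 6.78% lower, so their small counts are read only as those of single genes. TBL genes, needed to acetylate wall polysaccharides, had 1 of 22 called higher and 5 lower, with TBL41 at 113, 50.3 and 120.4 in auxin stele and 355, 364 and 484 in mock stele (-1.97 ± 0.29, adjusted p = 3.16e-06). CSLD2, a cellulose synthase-like gene, had 244, 281 and 276 in auxin stele and 629.6, 592 and 597 in mock stele (-1.14 ± 0.19, adjusted p = 3.37e-05), and CSLA03 fell by 1.24 on the log2 scale. These were the 2 lower of 8 genes of that family, and ATCSLC08 was called higher (0.78), a call lost without any 1 of the 6 arrays. The 3 auxin values of CSLD2 stood well below the narrow band of its mock values.

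Receptor kinases and a peptide that act at the wall were also lower, the kinases being picked after values were seen. FER (FERONIA), a receptor kinase that binds RALF peptides, had 1487, 982 and 1108 in auxin stele, against 2385, 2502 and 2227 in mock stele (-1.003 ± 0.22, adjusted p = 0.00126). THE1 (THESEUS1), a related kinase that senses wall damage, had 543, 350.2 and 499 in auxin stele and 1336, 929 and 879 in mock stele (-1.15 ± 0.25, adjusted p = 0.00101). RALFL22, a RALF-type peptide gene, had 598, 696 and 850.2 in auxin stele and 2096, 2381 and 2819 in mock stele (-1.75 ± 0.20, adjusted p = 4.71e-08). In each of these the groups did not overlap, as in 2135 of the 2228 genes called in the stele, so this is no separate support. Of 11 RALF-like genes, 1 was called higher (RALFL31, 1.005) and 2 lower (RALFL22 and RALFL33), beside 9.91% and 6.78% over all genes. The calls of RALFL31 and RALFL33 were lost without any of 2 or 4 arrays.

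Secretory and cytoskeletal genes, also taken up after values were seen, had lower calls only. Over all genes 9.91% were called higher and 6.78% lower, and these small counts are read only as those of single genes. Of 7 exocyst subunit genes, whose complex tethers vesicles at the plasma membrane, 3 were called lower and none higher, with a median of -0.64. SEC5A had 431, 254 and 349.6 in auxin stele, against 756, 570.3 and 762 in mock stele (-0.999 ± 0.24, adjusted p = 0.00245). SEC10 fell by 0.67 on the log2 scale (adjusted p = 0.0104), and SEC15B was not called (-0.52, adjusted p = 0.0825). SEC15A was the third called lower (-1.12). The SEC15A and SEC10 calls were lost without any of 3 or 2 arrays, while that of SEC5A held without each array in turn. Of 10 NET genes, whose proteins link actin to membranes, 3 were lower: NET1D, NET2D and NET4B, with NET1D at 302, 239 and 282 in auxin stele and 795, 680.0 and 810.4 in mock stele (-1.42 ± 0.24, adjusted p = 3.92e-05). ACT11, an actin gene, had 246, 225 and 252 in auxin stele and 1782, 1007 and 1033 in mock stele (-2.28 ± 0.26, adjusted p = 3.35e-08), and the tubulin gene TUB1 fell by 1.37 (adjusted p = 0.00022). The other 7 actin and tubulin genes were not called, among them TUA6 and TUB9 (-0.40 and 0.17, adjusted p = 0.27 and 0.611).

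**Figure D4:**
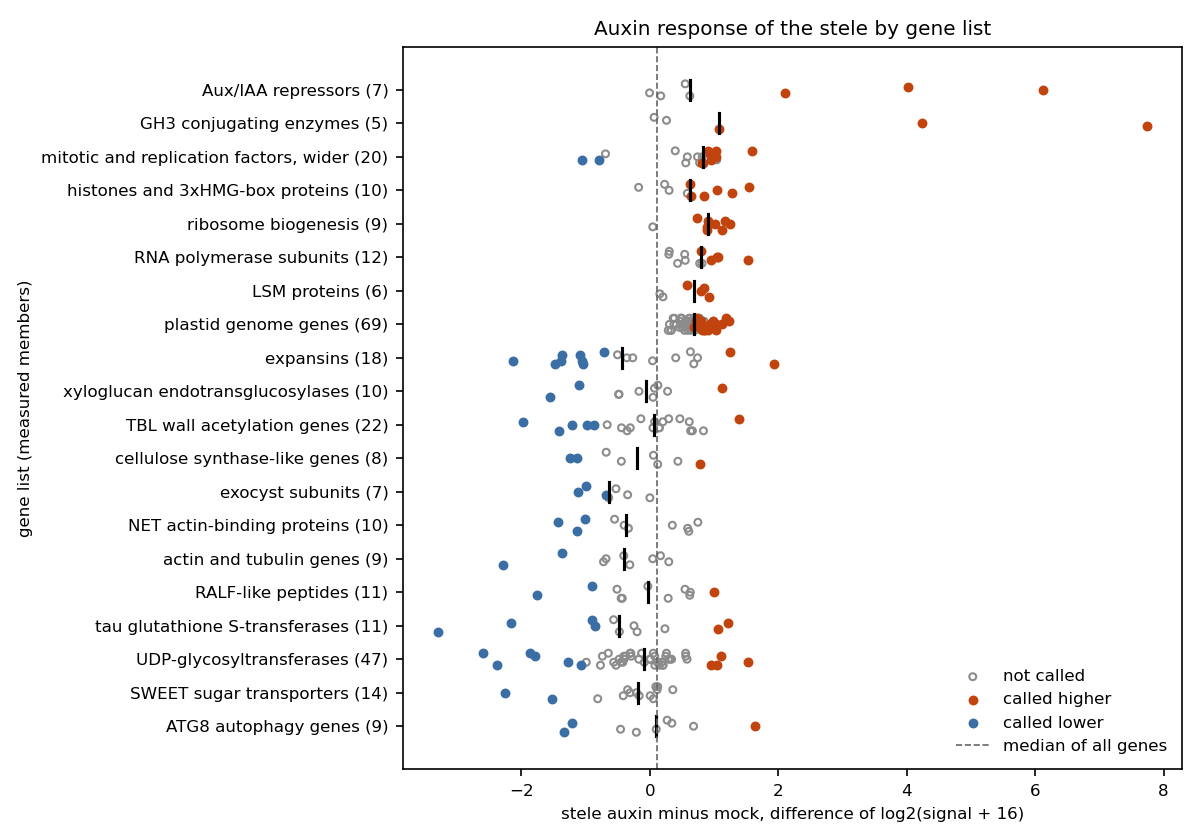
Auxin response of every measured member of 20 gene lists in the stele (auxin minus mock, difference of log2(signal + 16)); filled points are called at adjusted p under 0.05, open points are not, and black bars are list medians. The division, chromatin, ribosome and plastid lists lie right of the median of all genes (dashed, 0.11), and the exocyst and tau glutathione S-transferase lists lie left of it.

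Among transport and metabolism genes, single members were lower. GTR1, the 1 of 6 genes of the glucosinolate list that was called, had 359.6, 256 and 376 in auxin stele, against 1252, 1527 and 1245 in mock stele (-1.98 ± 0.20, adjusted p = 2.95e-09). It carries glucosinolates across the plasma membrane, and its paralogue GTR2 was not called (0.07, adjusted p = 0.874). SWEET2 and SWEET16, sugar transporter genes of the vacuolar membrane, were the 2 of 14 SWEET genes called, both lower (-2.26 ± 0.40 and -1.52 ± 0.29). Over all genes 6.78% were called lower, and the SWEET list was taken up after values were seen. SDP1, one of 3 genes picked after values were seen, is a lipase gene that breaks down stored oil, and it had 223, 219.9 and 170.4 in auxin stele and 705, 715 and 595 in mock stele (-1.65 ± 0.21, adjusted p = 2.67e-07). PDC2, a pyruvate decarboxylase gene of fermentation, fell by 1.29, and COR27, a cold-regulated gene, by 2.38 on the log2 scale (adjusted p = 1.06e-05 and 1.62e-07). Of 9 ATG8 genes of autophagosome formation, a list also taken up after values were seen, 1 was called higher and 2 lower. The other 6 were not called, and the shares over all genes were 9.91% and 6.78%. ATG8G had 398, 515 and 462 in auxin stele and 89.1, 159 and 175 in mock stele (1.64 ± 0.27, adjusted p = 2.17e-05), whereas ATG8E and ATG8H were lower (-1.34 ± 0.27 and -1.21 ± 0.27, adjusted p = 0.00038 and 0.00145).

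The stele response was then set against the mean response of pericycle, epidermis and columella in the same fit, each with its own mock arrays. The response differed at 378 of 22746 probe sets (1.66%), 111 higher (0.488%) and 267 lower (1.17%) in the stele, and at 174 of 13356 genes, 60 higher (0.449%) and 114 lower (0.854%). Of the 60 genes, 52 were called higher in the stele itself, and of the 114 genes, 84 were called lower in it. The count of probe sets was 146 without auxin replicate 2 and 194 without auxin replicate 1, against 438 without auxin replicate 3. It was 248, 250 and 220 without mock replicates 1, 2 and 3.

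Few division and chromatin genes passed this test: 1 of the 6 cell cycle genes (PRL, also the 1 of 20 in the wider set) and 4 of the 10 in the enlarged histone and 3xHMG set, all higher. The change of HTR12 was 1.55 in stele, against -0.16 in pericycle, 0.58 in epidermis and -0.33 in columella (difference 1.52 ± 0.35, limma adjusted p = 0.0163). PRL changed by 1.02 in stele, against -0.54, -0.45 and -0.20 in pericycle, epidermis and columella (difference 1.42 ± 0.35, adjusted p = 0.0265). The same held for 3xHMG-box2 (1.42 ± 0.36, adjusted p = 0.0277), 3xHMG-box1 (1.15 ± 0.31, adjusted p = 0.0475) and HTB4 (1.03 ± 0.23, adjusted p = 0.0113). None of these 5 genes was called in pericycle, epidermis, columella or intact roots. Each of the 5 differences lost its call without at least 1 stele array: HTB4 without mock replicate 1 alone, HTR12 and PRL without auxin replicates 1 and 2 and mock replicates 1 and 3, 3xHMG-box2 without auxin replicates 1 and 2 and mock replicates 1 and 2, and 3xHMG-box1 without 5 of the 6. The highest adjusted p among them was 0.235, for 3xHMG-box1. Without the variance trend the PRL difference and the 3xHMG-box2 difference also lost their calls (for PRL, adjusted p = 0.0503), and 3xHMG-box1 lost its call under 4 other settings. For AUR3, AUR2 and TOPII the difference did not pass (adjusted p = 0.489, 0.0767 and 0.154).

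Of the auxin response genes, PUCHI changed by 2.32 in stele, against 0.91, 0.80 and 0.31 in pericycle, epidermis and columella (difference 1.65 ± 0.40, adjusted p = 0.0208). SETH6, which is on no auxin list, rose in stele and in pericycle (2.91 and 2.36), against 0.56 in epidermis and 0.89 in columella (difference 1.64 ± 0.40, adjusted p = 0.0222). GH3.3 rose more in the stele than the mean of the others by 1.01 ± 0.26 (adjusted p = 0.0304), and WES1 rose less, with a difference of -0.92 ± 0.24 (adjusted p = 0.0312). These 4 differences were lost without any of 3 or 4 arrays. The WES1 difference was also lost under quantile normalization (-0.75, adjusted p = 0.0674), without the trend and with 24 sorted arrays alone, the GH3.3 difference without the trend (adjusted p = 0.0714), and the PUCHI difference and the SETH6 difference with a pseudocount of 4 (adjusted p = 0.271 and 0.104). LBD16, HAT2 and WAG2 rose in every sorted tissue, and their differences did not pass (adjusted p = 0.102, 0.273 and 0.22).

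AT1G54050, AT1G79910 and GH9C1 responded more in the stele and were lower in mock stele than in the other mock sorted tissues, by -1.82 ± 0.22, -1.36 ± 0.24 and -1.05 ± 0.26 (limma adjusted p = 6.81e-08, 4.84e-05 and 0.00348). The mock comparison uses the same mock arrays as the difference, with opposite sign. A low mock stele signal thus raises the difference too, and the mock levels are not separate support. AT1G54050 had 5178, 5595 and 7383 in auxin stele, against 1026, 1359.7 and 1216 in mock stele, while its change in the other sorted tissues was between -0.13 and 0.30 (difference 2.23 ± 0.31, adjusted p = 7.38e-05). AT1G79910 had 162, 214 and 234 in auxin stele and 32.2, 25.2 and 49.1 in mock stele, with no call elsewhere (difference 2.15 ± 0.34, adjusted p = 0.00029). AT3G03130 and AT3G56500 rose in stele by 1.45 ± 0.32 and 1.42 ± 0.32, with differences of 1.84 and 1.92. For GH9C1, an endoglucanase gene, the change was 1.02 in stele, a call lost without any of 4 arrays, and -2.60 in epidermis. Its difference from the other tissues' mean was 2.32 ± 0.37 (adjusted p = 0.000445). AT1G33700, AT1G48070 and AT5G02000 also had positive differences, of 1.81, 1.91 and 1.92. They fell in epidermis and columella, by 2.55 to 4.39 on the log2 scale, while their stele changes were -0.71, -0.63 and -1.05, of which the last was called.

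On the lower side, AT1G28160 changed by -3.43 in stele, against -0.73, -0.34 and -0.22 in pericycle, epidermis and columella (difference -3.002 ± 0.37, adjusted p = 2.71e-05). Its mock level was higher in stele than in the other sorted tissues by 2.90 ± 0.26 (adjusted p = 1.79e-10), on mock arrays that the difference also uses. JRG21, a jasmonate-regulated gene whose enzyme oxidises jasmonate, had 59.1, 133 and 143 in auxin stele, against 412, 645 and 605 in mock stele, and a difference of -1.99 ± 0.39 (adjusted p = 0.00392). AT5G12340 had 142, 145 and 220.3 in auxin stele and 721, 1036 and 909 in mock stele (difference -2.16 ± 0.35, adjusted p = 0.000581). UGT85A2 (-1.53 ± 0.22), COR27 (-1.74 ± 0.34), SDP1 (-1.34 ± 0.24) and GTR1 (-1.33 ± 0.23) had further falls in stele cells, relative to the other tissues' mean, with adjusted p of 0.00012, 0.00392, 0.00162 and 0.00125. These calls, and those of AT1G28160, JRG21 and AT5G12340, were kept without each stele array in turn. FER, CSLD2 and PDC2 passed less firmly, with differences of -0.94, -0.90 and -0.91 (adjusted p = 0.0479, 0.0234 and 0.0307) that were lost without 5 or 6 of the arrays. AT3G28580, AT3G28510 and AT1G43910 differed through the other tissues: they rose in epidermis and in columella, in the second by between 2.15 and 4.17, while their stele changes of -0.54, 0.57 and -0.41 were not called. Among expansins, EXLA3 and EXPA21 had lower responses in the stele (differences -1.67 ± 0.43 and -1.82 ± 0.45, adjusted p = 0.0315 and 0.0268), both lost without any of 4 arrays.

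**Figure D5:**
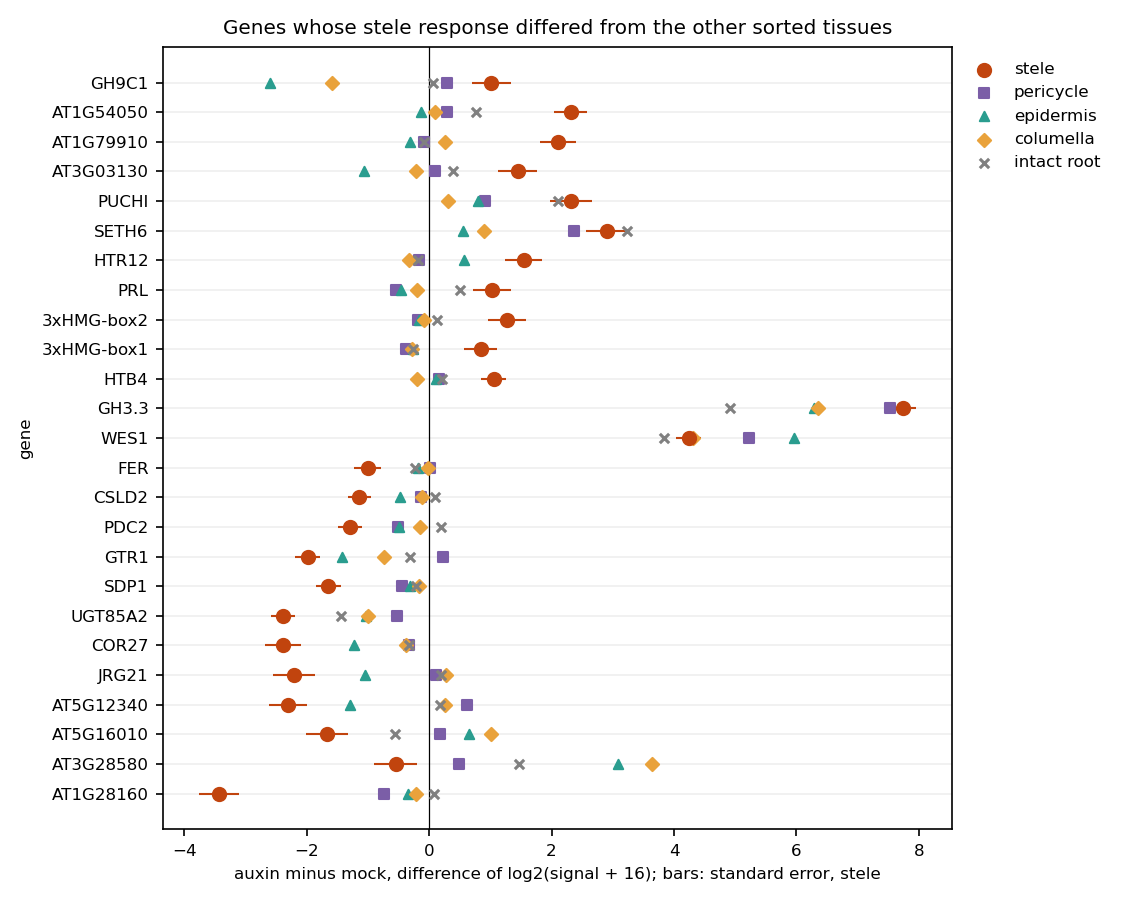
Auxin response (auxin minus mock, difference of log2(signal + 16)) in 5 sample types for 25 genes whose stele response differed from the mean of the other sorted tissues; bars on the stele points are standard errors. Stele points lie right of the other sorted tissues for most genes in the upper rows (HTR12, PRL, 3xHMG-box2) and left of them in the lower rows (JRG21, UGT85A2, AT1G28160).

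How much of the stele response was shared was counted by direction. Of the 1323 genes called higher in stele, 877 (66.3%) were called higher in none of the other 3 sorted tissues, and 97 (7.33%) in all of them. Of the 905 called lower, 421 (46.5%) were called lower in none and 110 (12.2%) in all. A missing call elsewhere does not show a difference: only 174 genes passed the test of the difference itself. The genes called both in stele and in pericycle in the same direction were 290 higher, 21.9% of the stele list and 46.5% of the pericycle list, and 275 lower, 30.4% and 51.2%. Over all genes, responses were called higher at 4.66% in pericycle, 4.13% in epidermis and 2.52% in columella, and lower at 4.02%, 4.57% and 2.28%, or 8.69%, 8.69% and 4.81% in either direction. Stele minus pericycle, a contrast added after the data were seen, was called at 128 genes (0.958%), 37 higher (0.277%) and 91 lower (0.681%) in the stele.

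Intact roots give the response of cells that had not been digested or sorted, in a mixture of all root cell types. Responses were called higher there at 4.49% and lower at 3.64% of genes, 8.13% in all. Of the genes called higher in stele, 223 were higher in intact roots too (16.9% of the stele list, 37.2% of the intact list) and 11 were lower. Of those called lower in stele, 154 were lower in intact roots (17.0% and 31.7%) and 40 were higher. All 40 and all 11 passed a test of stele minus intact roots, which was added after the data were seen and called 876 genes (6.56%). That test uses the same arrays by which these genes were called in opposite directions. Their passing was therefore nearly fixed by the choice and adds no separate support. AT1G67750 changed by -1.33 ± 0.32 in stele and by 4.46 in intact roots, and AT3G59850 by -1.93 ± 0.25 and 3.42. AT3G59850 had 142, 99.1 and 94.8 in auxin stele, against 511, 484 and 407 in mock stele, and a mean of 529 in auxin intact roots, against 35.1 in mock intact roots. EXPA9 (-1.08 in stele, 0.76 in intact roots), SKU5 (-0.67 and 1.26), a glycoprotein gene of directional root growth, and CP1 (-1.94 and 1.43), a cysteine proteinase gene, were of the same kind, as was AT3G22540 (-2.82 and 1.79). The named genes of this comparison other than AT3G22540 were picked after values were seen. The stele call of SKU5 was lost without any of 4 stele arrays, and that of AT1G67750 without auxin replicate 3. Of the 40 genes, 23 were also lower in at least 1 other sorted tissue and 7 in all 3. Digestion for 1 h, a step for which the design text also names IAA, sorting and the mixture of cell types all separate the sorted stele from intact roots. RNA of sorted cells was also amplified before labelling. The parts of these cannot be told apart.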

How the data were processed

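Per the submitters' processing notes, the authors made the deposited values with MAS5, and they are intensity values on a linear scale, scaled to a 2% trimmed mean of 250 on each array, as tested on the files. Per the labels' protocols, RNA of sorted cells was amplified before labelling. From these values log2(signal + 16) was computed, control probe sets were left out, and 1 model over 30 arrays and 10 groups was fitted with limma 3.58.1 in R 4.3.3 (trend, no low-value filter, two-sided, Benjamini-Hochberg over 22746 probe sets). Tables were made with Python 3.11.15, scipy 1.17.1 and matplotlib 3.10.9. Of the probe sets, 13513 carried 1 gene. Depth does not apply to arrays, so their number limits the precision.

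Named genes were, among called genes with groups apart, the 14 that rose most and the 12 that fell most, the 8 largest differences each way, up to 4 called and 2 other members of each list, LHW, and genes said to be picked after values were seen. The members and lists were chosen with earlier results of these data known. The scripts were tested on simulated data. Alternatives changed the normalization, pseudocount, filter, probe sets, variance trend, array weights, replicate block and arrays used. Sequences were not used here.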

Additional observations from a re-analysis of the deposited data

Results flagged for a closer look

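The named genes below stood out because their stele response differed from the mean response of pericycle, epidermis and columella in the limma test of that difference. There were 36 such genes among those named, 16 with a higher and 20 with a lower value in the stele, each value being a difference of log2 changes, stele minus the others. Across all genes 0.449% were called higher and 0.854% lower in the same test. Of the 36 calls, 17 held without each stele array in turn.

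On the higher side, the locus-only genes AT1G54050, AT1G79910, AT5G02000, AT3G56500, AT1G48070, AT3G03130 and AT1G33700 had differences of 2.23, 2.15, 1.92, 1.92, 1.91, 1.84 and 1.81. GH9C1 had 2.32 and SETH6 1.64. The division and chromatin genes were HTR12 at 1.52, PRL at 1.42, 3xHMG-box2 at 1.42, 3xHMG-box1 at 1.15 and HTB4 at 1.03. PUCHI was at 1.65 and GH3.3 at 1.01.

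On the lower side, AT1G28160, AT3G28580, AT3G28510, AT5G16010, AT5G12340, AT4G19720, AT1G43910 and AT2G15960 had differences of -3.002, -2.95, -2.87, -2.28, -2.16, -2.09, -2.01 and -1.79. AT5G16010 had 319, 297 and 669.7 in auxin stele, against 1116, 1455 and 1354 in mock stele, while its changes in pericycle, epidermis and columella were 0.18, 0.66 and 1.004. AT4G19720 changed by -1.73 in stele, against 0.86, 0.34 and -0.14 in those 3 tissues. The named enzymes and transporters were JRG21 at -1.99, COR27 at -1.74, CP1 at -1.59, UGT85A2 at -1.53, SDP1 at -1.34, GTR1 at -1.33 and PDC2 at -0.91. The wall-related genes were EXPA21 at -1.82, EXLA3 at -1.67, FER at -0.94 and CSLD2 at -0.90. WES1 was at -0.92.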

How the results depend on the processing

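No call of a named gene changed direction under any alternative, but calls were lost. Named genes without a call were not checked for a change of direction. Of 142 named stele calls, 8 were lost under quantile normalization, 6 after centring on the 75th percentile, 10 with a pseudocount of 4, 4 with one of 64, 5 without the trend, 9 with 6 stele arrays alone and 13 with 24 sorted arrays alone. Of 36 named differences, 2, 1, 8, 0 and 7 were lost under the first 5 of these and 4 under the last. The stele response was called at 4188 probe sets, and at 2140 when 1 probe set per gene was tested, where fewer probe sets entered the test. Without any 1 stele array it was called at 2648 to 3483. The share of higher calls, 55.6%, became 47.4% under quantile normalization and 48.9% after centring on the 75th percentile. The difference from the other sorted tissues was called at 378 probe sets, against 740 with a pseudocount of 64, 141 with 1 probe set per gene, 243 without the trend, 608 with array weights, 675 with the replicate block, and 146 to 438 without any 1 stele array; the causes were not tested. With a pseudocount of 64 the higher share of these calls became 47.8%, in place of 29.4%. Deviations from the group mean correlated at 0.09, 0.09 and 0.03 between stele arrays of the same replicate number. Between arrays of different number they correlated at -0.08 to -0.01. Any pairing by number was thus weak, its presence was not tested, and the main fit does not use it. The block gave 4969 probe sets for the stele response. Of the 142 calls, 96 held without any 1 array. The planned count of promoter motifs was not run. Signals near the floor, as in AT2G17680, limit the precision of folds, and 3 arrays per group limit all of them.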

Other observations

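Further genes were called lower in stele and higher in intact roots. NDB2, a mitochondrial NADH dehydrogenase gene, changed by -0.87 ± 0.19 in stele and 0.90 in intact roots (limma adjusted p = 0.000912 and 0.000772). HMT-1, a homocysteine methyltransferase gene, changed by -0.69 ± 0.18 and 0.63, and CCT2, of phosphatidylcholine synthesis, by -1.23 ± 0.23 and 1.05. NANA, an aspartic protease gene of the chloroplast, changed by -1.74 ± 0.34 and 1.05. These genes were picked after their values were seen.

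Of 15 GH9 endoglucanase genes, 1 was called higher in stele (GH9C1) and 2 lower (GH9B11 at -0.93 and GH9C3 at -0.65), calls that were each lost without any of 4 or 5 arrays. The shares over all genes were 9.91% and 6.78%, and this list was taken up after values were seen. HRGP1, an extensin-like wall protein gene, fell by 1.58 on the log2 scale (adjusted p = 0.00969), on a probe set that may also bind related transcripts. Its call was lost without auxin replicate 2 or mock replicate 3.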
